A study of Mus musculus with 25 samples.

Results

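*H19* and 9 other imprinted genes of growth control (*Igf2*, *Dlk1*, *Meg3*, *Rian*, *Cdkn1c*, *Peg3*, *Grb10*, *Mest* and *Plagl1*) were followed through the RNA of mouse *soleus* muscle. They were taken by their gene symbols from a table of read counts on 52636 genes, and all 10 had 1 row each. Enough reads for a test were present for 9 of them, among 16340 genes tested, and *Dlk1* did not reach that level. The study asked whether the DNA methyltransferase DNMT3A matters for gene expression in muscle at rest and in its response to acute exercise.

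The samples were *soleus* muscles of 25 mice of 12 weeks, 1 library per mouse, all carrying *Dnmt3a* flox/flox alleles on a C57BL/6 background. WT mice had no Cre. The muscle knockouts (mD3AKO) also carried the *mCK-Cre* transgene, in which the muscle creatine kinase promoter drives Cre. This promoter acts in differentiated muscle, so cells of the *soleus* other than muscle fibers can keep their *Dnmt3a*. Of the WT mice, 5 were killed at rest after time in a sham treadmill arena, and 7 ran on a treadmill for 30 minutes and were killed 60 minutes later. The mD3AKO mice comprised 7 at rest and 6 after exercise, and 13 of the 25 mice were male.

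An imprinted gene is transcribed mainly from the chromosome inherited from 1 parent, and which copy is silent is set by DNA methylation laid down in the germ line. *H19* and *Igf2* share enhancers and an imprinting control region, and the maternal chromosome transcribes *H19*, a long non-coding RNA, while the paternal one transcribes *Igf2*, a fetal growth factor. In the *Dlk1*-*Dio3* domain the paternal copy gives *Dlk1*, a membrane protein of the Notch ligand family, and the maternal copy gives the non-coding RNAs *Meg3* and *Rian*. *H19* is abundant in fetal tissue and is known to stay transcribed in skeletal muscle after birth.

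*H19* lies on the minus strand of mouse genome build mm10 at chr7:142575529-142578143 and is annotated as a lincRNA. Its annotated transcript of 2286 bases has 5 exons. Exon 1 holds the hairpin of miR-675, a microRNA cut from the *H19* RNA, and the counts of *H19* do not tell the processed microRNA from its host. The 2 mature microRNAs are shown because they are the known short products of *H19*, the 1 gene of the 10 called for genotype. In the RefSeq sequences (GRCm38.p6) the seed, bases 2 to 8, is in capitals, and in the hairpin at chr7:142577064-142577147 (minus strand) the capitals are the mature microRNAs.
mmu-miR-675-5p: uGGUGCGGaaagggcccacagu
mmu-miR-675-3p: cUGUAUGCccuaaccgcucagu
Mir675 hairpin: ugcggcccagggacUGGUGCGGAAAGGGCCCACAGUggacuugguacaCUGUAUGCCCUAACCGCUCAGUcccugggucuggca

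Exon 5 of *H19* holds the stretch that the study amplified from bisulfite-treated DNA to measure methylation in the gene body. Both of its primers matched the reverse strand of the transcript after every C was read as T, at chr7:142575719-142575929. This stretch of 211 bases is printed as *H19* is transcribed (GENCODE release 21, mm10), with its 5 CpG dinucleotides, the sites that DNMT3A can methylate, in capitals. Methylation itself was not analysed here.
H19 bisulfite amplicon: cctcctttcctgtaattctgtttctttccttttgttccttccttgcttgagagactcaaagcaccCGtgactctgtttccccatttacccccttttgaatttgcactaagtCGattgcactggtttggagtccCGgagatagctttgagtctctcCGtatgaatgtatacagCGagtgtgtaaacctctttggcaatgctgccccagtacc

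RefSeq promoter windows, from 250 bases before to 50 after a transcription start, were found for 8 of the 10 genes, in 15 windows. They differed in CpG content. The window with the most, 45 CpG, belonged to *Grb10*, and only 1.93% of all 32851 windows in the table hold that many or more. *Plagl1* had 26 CpG and the 4 windows of *Igf2* between 2 and 24, against a median of 7 over all windows. Windows of *Meg3*, *Rian* and *Peg3* are printed with CpG in capitals, since *Rian* has 0 CpG (5.43% of all windows have none) while *Meg3*, in the same domain, and *Peg3*, a paternally expressed gene elsewhere, have 13 each. A further window of *Meg3*, at chr12:109545148-109545447 and not printed, has 1 CpG.
Meg3 promoter, chr12:109540746-109541045 (plus strand): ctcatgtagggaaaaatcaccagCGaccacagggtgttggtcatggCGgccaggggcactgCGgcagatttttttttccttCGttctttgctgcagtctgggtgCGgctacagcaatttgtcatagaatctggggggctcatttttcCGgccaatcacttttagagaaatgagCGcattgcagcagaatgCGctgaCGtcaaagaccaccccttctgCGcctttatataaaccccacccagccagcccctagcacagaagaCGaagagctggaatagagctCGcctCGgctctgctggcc
Rian promoter, chr12:109603695-109603994 (plus strand): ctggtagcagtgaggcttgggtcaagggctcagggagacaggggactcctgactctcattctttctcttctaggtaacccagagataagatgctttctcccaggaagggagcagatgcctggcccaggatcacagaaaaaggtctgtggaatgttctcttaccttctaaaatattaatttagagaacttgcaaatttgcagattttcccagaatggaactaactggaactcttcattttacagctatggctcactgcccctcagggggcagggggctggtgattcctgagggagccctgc
Peg3 promoter, chr7:6730370-6730669 (minus strand): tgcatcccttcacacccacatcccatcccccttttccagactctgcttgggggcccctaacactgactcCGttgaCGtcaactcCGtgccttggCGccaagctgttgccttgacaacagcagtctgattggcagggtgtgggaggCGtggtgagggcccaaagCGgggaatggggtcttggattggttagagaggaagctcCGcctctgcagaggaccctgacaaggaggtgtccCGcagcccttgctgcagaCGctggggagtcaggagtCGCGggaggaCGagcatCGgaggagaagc

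Libraries held between 22671457 and 37431801 counts, and values are given as CPM, a gene's count relative to the TMM-normalized total of its library, where 1 CPM is about 32.2 reads at the median total. *Dnmt3a* lay between 93.4 and 131 CPM in WT and between 34.5 and 53.9 CPM in mD3AKO mice, and the deletion of exon 19 does not remove reads of the other exons. Genes of slow fibers, which abound in *soleus* (*Myh7*, *Tnni1* and 5 others), were high in every library, with a summed level between 26999 and 51373 CPM. 3 libraries stood apart. Mouse 15 (mD3AKO at rest) stood out by ribosomal RNA, with 39.5% of its counts, where the remaining 24 mice had 7.76% to 13.0%. Mouse 7 (mD3AKO at rest, male) had the highest summed level of fibroblast, immune cell and blood markers of all mice, and 506 CPM of the embryonic myosin *Myh3*, against at most 72.7 in any other mouse. Mouse 13 (WT at rest, male) had 31.0 CPM of *Meg3*, against at most 8.05 in any other mouse. In these bulk samples, fewer cells of a type and less RNA per cell cannot be told apart.

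Per kilobase of exon, *H19* was far above the other 9 genes (RPKM, the CPM divided by exon length in kilobases). It reached a mean of 1320 ± 433 RPKM (SD, n = 25), rank 31 among all genes, and took between 0.135% and 0.598% of all counts of a library. *Grb10* followed with 13.6 ± 3.09 RPKM, *Cdkn1c* with 4.22 ± 1.42, *Igf2* with 2.14 ± 0.842 and *Peg3* with 1.82 ± 0.812 RPKM. Below these came *Mest* at 1.32 ± 1.21, *Rian* at 0.723 ± 0.477, *Plagl1* at 0.291 ± 0.162, *Meg3* at 0.283 ± 0.309 and *Dlk1* at 0.0258 ± 0.0293 RPKM. *H19*, *Grb10*, *Cdkn1c* and *Igf2* kept this order in all 25 mice. Neighbours that changed places between mice were *Igf2* and *Peg3* (this order in 20 of 25), *Peg3* and *Mest* (22), *Mest* and *Rian* (23) and *Plagl1* and *Meg3* (18).

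**Figure D1:**
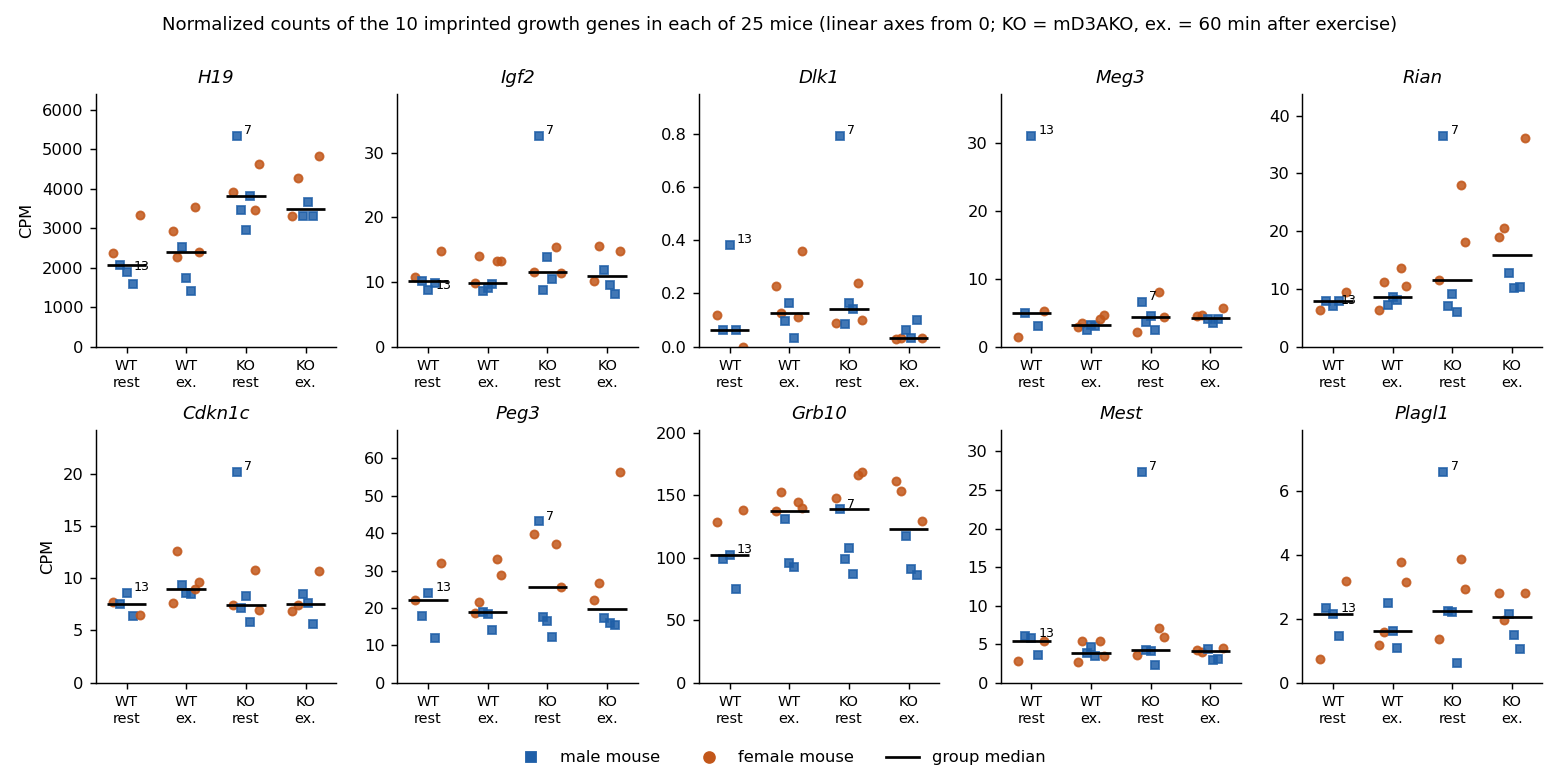
Each point is 1 mouse (squares male, circles female), the vertical axes give CPM on linear scales from 0, and black lines are group medians over 5 to 7 mice. The median of *H19* is 2069 and 2406 CPM in the WT groups and 3816 and 3493 CPM in the mD3AKO groups, while mouse 7 tops the panels of *H19*, *Igf2*, *Dlk1*, *Rian*, *Cdkn1c*, *Mest* and *Plagl1* and mouse 13 that of *Meg3*.

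*H19* was higher in mD3AKO than in WT muscle, by 1.65 times in the group means. In the 5 WT mice at rest *H19* stood at 1577, 1892, 2069, 2359 and 3335 CPM. WT mice after exercise ranged from 1412 over a median of 2406 to 3530 CPM. The mD3AKO mice ranged from 2953 over 3816 to 5326 CPM (mouse 7) at rest, and from 3300 over 3493 to 4830 CPM after exercise. Most mD3AKO mice thus lay above most WT mice at both times, and the ranges overlapped through the highest WT and the lowest mD3AKO mice.

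Averaged over rest and exercise, the genotype difference of *H19* was 0.73 ± 0.14 (log2 fold change ± SE, edgeR quasi-likelihood test, adjusted p = 0.0085). It was the 1 gene called among the 9 tested (adjusted p under 0.05), and over all tested genes 0.269% were called for genotype. The genes were listed with earlier results of these data known, and the study itself reports higher *H19* RNA in mD3AKO *soleus*. The call is therefore no independent result, and the 2 shares do not test the list. Taken singly, the difference of *H19* was 0.81 ± 0.20 at rest (adjusted p = 0.24) and 0.65 ± 0.19 after exercise (adjusted p = 0.41) in the same edgeR fit. Neither passed, 0 of the 9 genes were called in either contrast, and the background was 0.0918% at rest and 0.11% after exercise. At an unadjusted p under 0.05 in this fit, *H19*, *Rian* and *Meg3* passed at rest (3.65% of all tested genes did) and *H19* and *Rian* after exercise (5.51% of all). The value of *Meg3* at rest, -0.99, rests on mouse 13, without which the WT mice at rest held 3.69 ± 1.80 CPM (SD, n = 4) and the mD3AKO mice 4.55 ± 2.14 CPM (n = 7).

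The call of *H19* held without any 1 of the 25 mice, with edgeR's adjusted p between 0.0020 and 0.028. It was lost when counts were scaled by library totals alone (0.69, edgeR's adjusted p = 0.066) and when mice 7, 13 and 15 were left out together (0.65, adjusted p = 0.079).

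By sex, the 6 WT males held 1870 ± 395 CPM of *H19* (SD) and the 7 mD3AKO males 3690 ± 773 CPM, 1.97 times as much. All mD3AKO males (from 2953 CPM) lay above all WT males (up to 2524 CPM). Such a gap among males was found for *H19* and no other of the 9 genes, and for 0.263% of all tested genes. In females, the 6 WT mice held 2803 ± 543 CPM and the 6 mD3AKO mice 4064 ± 618 CPM, and their ranges overlapped between 3315 and 3530 CPM. Fitted alone, males gave a genotype difference of 0.96 (edgeR, adjusted p = 0.031) and females one of 0.53 (adjusted p = 1.0). The effect was larger in males by 0.43 ± 0.23 in a fit of both sexes, which did not pass (edgeR, adjusted p = 1.0), so it was not shown to differ between the sexes.

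*Igf2*, the growth factor transcribed from the other parental chromosome, was 1 of the weakly expressed neighbours. Its 5 WT mice at rest held 8.71, 9.91, 10.1, 10.8 and 14.9 CPM, and the WT mice after exercise ran from 8.67 over 9.84 to 14.0 CPM. The mD3AKO mice ran from 8.74 over 11.6 to 32.5 CPM at rest and from 8.18 over 11.0 to 15.5 CPM after exercise. The 4 groups overlapped throughout, and the value of 32.5 CPM belongs to mouse 7. The genotype difference was 0.26 ± 0.17 (edgeR, adjusted p = 0.93), and 0.10 without mouse 7.

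**Figure D2:**
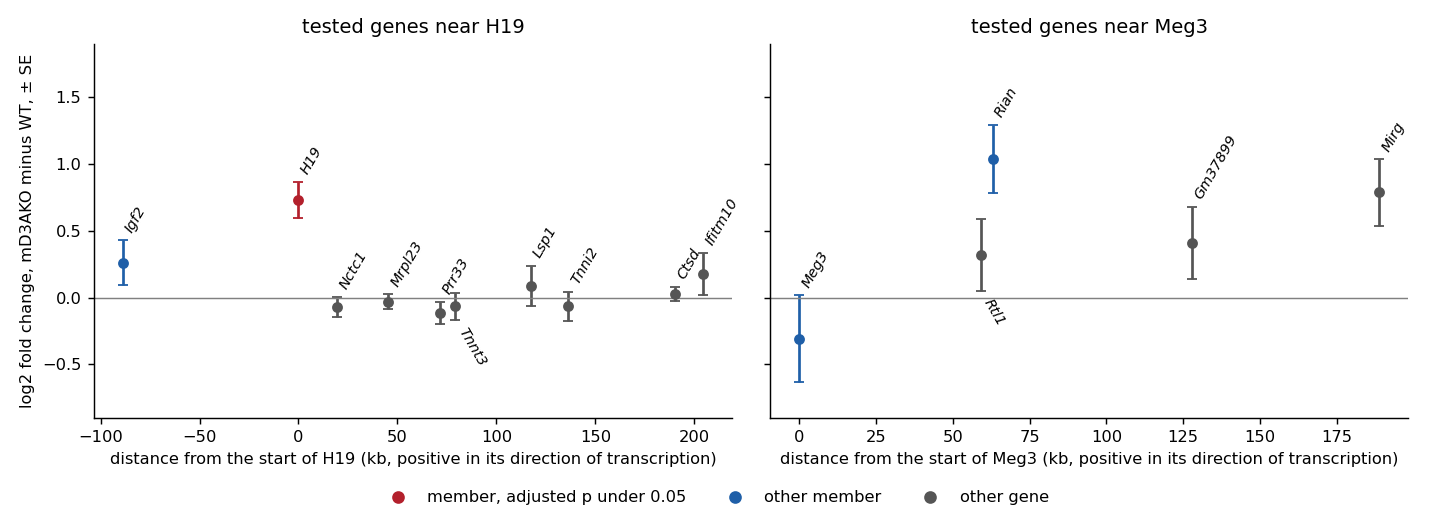
Points are log2 fold changes of mD3AKO minus WT muscle with SE for each tested gene within 250 kb, at its start's distance in kb from the start of *H19* (left) or *Meg3* (right). *H19* stands at 0.73 while *Nctc1*, at 19.5 kb, stands at -0.07, and on the right *Rian* (1.04) and *Mirg* (0.79) lie above *Meg3* (-0.31).

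None of the genes around *H19* was called for genotype in edgeR. Within 250 kb, 9 others were tested, *Igf2* included, and their log2 fold changes lay between -0.11 and 0.26. *Nctc1*, a non-coding RNA gene 19.5 kb downstream, changed by -0.07 ± 0.08, and the troponin genes *Tnnt3* and *Tnni2*, of the fast fiber sarcomere, by -0.07 ± 0.10 and -0.06 ± 0.11. *Nctc1* differed with exercise instead, from a median of 49.6 CPM at rest (n = 12) to 68.6 CPM after exercise (n = 13), by 0.46 ± 0.08 in log2 fold change (edgeR, adjusted p = 0.00011). It is named here because it passed that test next to *H19*, after its values were seen. Over the windows of all 10 genes, 34 different genes outside the list were tested, 0 were called for genotype (0.269% of all tested genes) and 2 for exercise (10.4% of all), the other being *Tnfrsf26* near *Cdkn1c*, also named after its values were seen. It stood at 0.384 ± 0.160 CPM at rest and 0.148 ± 0.066 CPM after exercise (SD, n = 12 and 13).

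In the *Dlk1*-*Dio3* domain, *Rian*, the host RNA of many small nucleolar RNAs, had the largest genotype difference in size of the 9 genes. The WT mice at rest held 6.35, 7.05, 7.90, 7.90 and 9.39 CPM, and those after exercise ran from 6.32 over 8.54 to 13.6 CPM. The mD3AKO mice ran from 5.94 over 11.5 to 36.5 CPM at rest and from 10.2 over 15.8 to 36.1 CPM after exercise. The lowest mD3AKO mouse (mouse 15) thus lay below every WT mouse, and the highest (mice 7 and 23) well above every WT mouse.

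For *Rian* the genotype difference was 1.04 ± 0.26, which did not pass in edgeR (adjusted p = 0.10, unadjusted p = 0.00044). It passed with DESeq2 (1.03, adjusted p = 0.029) and with 3 ranges of mouse numbers as a term in edgeR (1.00, adjusted p = 0.036), where mice 1 to 6 and 20 to 25 are the females and 7 to 19 the males. It did not pass in edgeR with sex itself as a term (1.01, adjusted p = 0.059) or with library totals alone (1.05, adjusted p = 0.31). Without mouse 7 or any other single mouse it stayed between 0.88 and 1.10 and was not called. In females *Rian* ran from 6.32 to 13.6 CPM in WT and from 11.5 to 36.1 CPM in mD3AKO mice, and in males from 7.05 to 8.54 CPM and from 5.94 to 36.5 CPM. Without mouse 7 the other 6 mD3AKO males reached 12.7 CPM. Reads of the small RNA genes that overlap *Rian* on its strand, 19 in the annotation, may be shared with it, since the counting rule for overlaps is not given in the sources used here.

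*Meg3*, the maternally expressed RNA upstream of *Rian*, was not called for genotype. Its WT mice at rest held 1.40, 3.12, 5.01, 5.24 and 31.0 CPM, of which the last is mouse 13 with 1052 reads. WT mice after exercise ran from 2.499 over 3.13 to 4.71 CPM, and mD3AKO mice from 2.20 over 4.40 to 8.05 CPM at rest and from 3.55 over 4.30 to 5.67 CPM after exercise. Apart from mouse 13 all values were within 1.40 and 8.05 CPM.

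*Meg3* differed by -0.31 ± 0.32 between genotypes (edgeR, adjusted p = 1.0), and this turned to 0.34 without mouse 13. The other maternally expressed RNA gene near by, *Mirg*, which hosts microRNAs, stood at 1.10 ± 0.309 CPM in WT and 1.84 ± 0.967 CPM in mD3AKO mice, a difference of 0.79 ± 0.25 (edgeR, adjusted p = 0.35). It is named after its values were seen. *Dlk1* rested on few reads. The 5 WT mice at rest held 0, 2, 2, 4 and 13 reads, where a count of 0 allows up to 3, and WT mice after exercise held 1 to 12. mD3AKO mice held 2 to 31 reads at rest, the 31 again in mouse 7, and 1 to 3 after exercise. All mice but mouse 7 thus stayed at or under 0.384 CPM. At so few reads *Dlk1* was not tested for differences between groups.

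**Figure D3:**
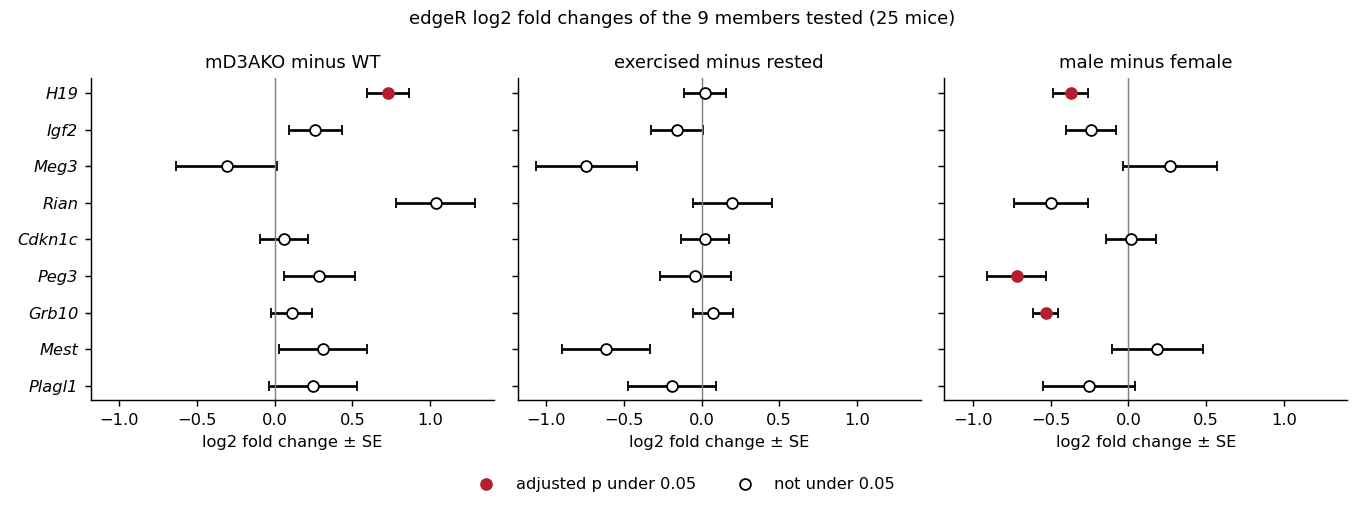
Points are log2 fold changes with SE from edgeR for the 9 tested genes over 25 mice, and red points have an adjusted p under 0.05. *H19* is red for genotype (0.73), no gene is red for exercise, and *H19* (-0.37), *Peg3* (-0.72) and *Grb10* (-0.53) are red for males minus females.

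Of the inhibitors of growth, *Cdkn1c*, a maternally expressed inhibitor of cyclin-dependent kinases, held 6.42, 6.52, 7.49, 7.70 and 8.62 CPM in the WT mice at rest. It ran from 7.60 over 8.98 to 12.6 CPM in WT mice after exercise, and in mD3AKO mice from 5.80 over 7.39 to 20.1 CPM at rest and from 5.60 over 7.51 to 10.7 CPM after exercise. Mouse 7 gave the 20.1 CPM, and the groups overlapped. The genotype difference was 0.06 ± 0.15 (edgeR, adjusted p = 1.0) and -0.09 without mouse 7.

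*Grb10*, an adaptor that dampens signals of the insulin and IGF1 receptors, was the second most abundant of the 10 genes. WT mice at rest held 75.0, 99.3, 103, 129 and 139 CPM, and those after exercise ran from 92.8 over 138 to 152 CPM. The mD3AKO mice ran from 87.0 over 139 to 169 CPM at rest and from 86.3 over 123 to 162 CPM after exercise. The genotypes overlapped in nearly their whole range, with a difference of 0.11 ± 0.13 (edgeR, adjusted p = 1.0). With 1 mouse left out, the difference ran from 0.05 to 0.16.

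The zinc finger protein gene *Peg3* held 12.0, 17.8, 22.1, 24.0 and 32.1 CPM in WT mice at rest and ran from 14.0 over 18.9 to 33.1 CPM in WT mice after exercise. In mD3AKO mice it ran from 12.2 over 25.5 to 43.2 CPM at rest and from 15.4 over 19.7 to 56.3 CPM after exercise. Its genotype difference was 0.29 ± 0.23 (edgeR, adjusted p = 0.96), and 0.09 without mouse 23, which holds the 56.3 CPM. *Zim1*, the maternally expressed zinc finger gene beside it, differed by 0.53 ± 0.20 (edgeR, adjusted p = 0.59).

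*Plagl1*, a zinc finger transcription factor expressed from the paternal copy, held 0.746, 1.45, 2.15, 2.33 and 3.17 CPM in WT mice at rest and ran from 1.10 over 1.62 to 3.79 CPM in WT mice after exercise. mD3AKO mice ran from 0.629 over 2.24 to 6.58 CPM at rest and from 1.05 over 2.05 to 2.81 CPM after exercise, with a genotype difference of 0.25 ± 0.28 (edgeR, adjusted p = 1.0). The 6.58 CPM is mouse 7, without which the difference was 0.07. *Mest*, a paternally expressed gene of the hydrolase fold, held 2.80, 3.61, 5.43, 5.75 and 6.04 CPM in WT mice at rest. Its WT mice after exercise ran from 2.69 over 3.89 to 5.44 CPM, and its mD3AKO mice from 2.24 over 4.20 to 27.3 CPM at rest and from 2.93 over 4.07 to 4.46 CPM after exercise. All mice other than mouse 7 stayed within 7.05 CPM. *Mest* overlaps *Copg2* in the annotation, as *Igf2* overlaps *Igf2os*, and reads there may be shared. *Mest* differed by 0.31 ± 0.28 between genotypes (edgeR, adjusted p = 0.98) and by -0.08 without mouse 7.

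Exercise called 0 of the 9 genes, against 10.4% of all tested genes (edgeR, and 0 of the 9 with DESeq2). At an unadjusted p under 0.05, 2 of the 9 passed, against 21.3% of all tested genes. *Meg3* differed by -0.74 ± 0.32 (edgeR, adjusted p = 0.17) and by -0.08 without mouse 13. *Mest* differed by -0.62 ± 0.28 (edgeR, adjusted p = 0.20) and by -0.23 without mouse 7. *H19* differed by 0.02 ± 0.13 (edgeR, adjusted p = 0.97), and its sign changed with the mouse left out. The other 6 genes lay between -0.19 and 0.20, and between -0.01 and 0.36 without mouse 7.

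The response to exercise was not shown to differ between genotypes for any of them. The interaction called 0 of the 9 genes and 0.0% of all tested genes in edgeR, and 0 of the 9 in DESeq2. Its adjusted p was 1.0 for all 9 in edgeR, and unadjusted p under 0.05 was reached by *Meg3* (1.36 ± 0.65) and *Cdkn1c* (-0.64 ± 0.31), and by 2.47% of all tested genes. The value of *Meg3* was 0.05 without mouse 13, and that of *Cdkn1c* -0.35 without mouse 7.

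Males and females differed in 3 of the 9 genes, all lower in males, against 8.65% of all tested genes called for sex (edgeR with 8 groups). *Grb10* held between 75.0 and 139 CPM (median 99.1) in 13 males and between 129 and 169 CPM (median 146) in 12 females. Only the highest males reached the lowest females, and the difference was -0.53 ± 0.08 in log2 fold change (edgeR, adjusted p = 0.00016). *Peg3* held between 12.0 and 43.2 CPM (median 17.2) in males and between 18.5 and 56.3 CPM (median 27.7) in females. It differed by -0.72 ± 0.19 (edgeR, adjusted p = 0.020), and by -0.65 without mouse 20, where the call was lost (adjusted p = 0.070).

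*H19* held between 1412 and 5326 CPM (median 2953) in males and between 2264 and 4830 CPM (median 3392) in females. Its difference was -0.37 ± 0.11 (edgeR, adjusted p = 0.043), close to the threshold. The call held in 8 of the 25 fits that left 1 mouse out, with adjusted p up to 0.15 without mouse 20. Without mouse 7, *Igf2* (-0.39, edgeR adjusted p = 0.013) and *Rian* (-0.74, adjusted p = 0.0026) were called as well, both again lower in males.

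Slow fiber genes, like these 3 genes, were lower in males. Of 7 slow fiber markers 6 were lower in males and of 8 fast fiber markers 5 were higher in males (edgeR, where 8.65% of all tested genes were called). Summed slow fiber markers had a median of 31178 CPM in males (26999 to 34623) and of 38827 CPM in females (32247 to 51373). Of 6 Schwann cell markers 0 were called for sex in edgeR, but all 6 had an unadjusted p under 0.05 (23.9% of all tested genes did), with a median log2 fold change of -0.79. Their summed level had a median of 90.8 CPM in males (72.6 to 324) and of 119 CPM in females (81.2 to 722). Of 8 satellite cell markers 2 were called lower in males in edgeR, *Chodl* (-0.39 ± 0.10) and *Pax7* (-0.31 ± 0.08), named after their values were seen. The part of fiber, Schwann cell and satellite cell markers in the sex differences of *Grb10*, *Peg3* and *H19* was not tested.

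**Figure D4:**
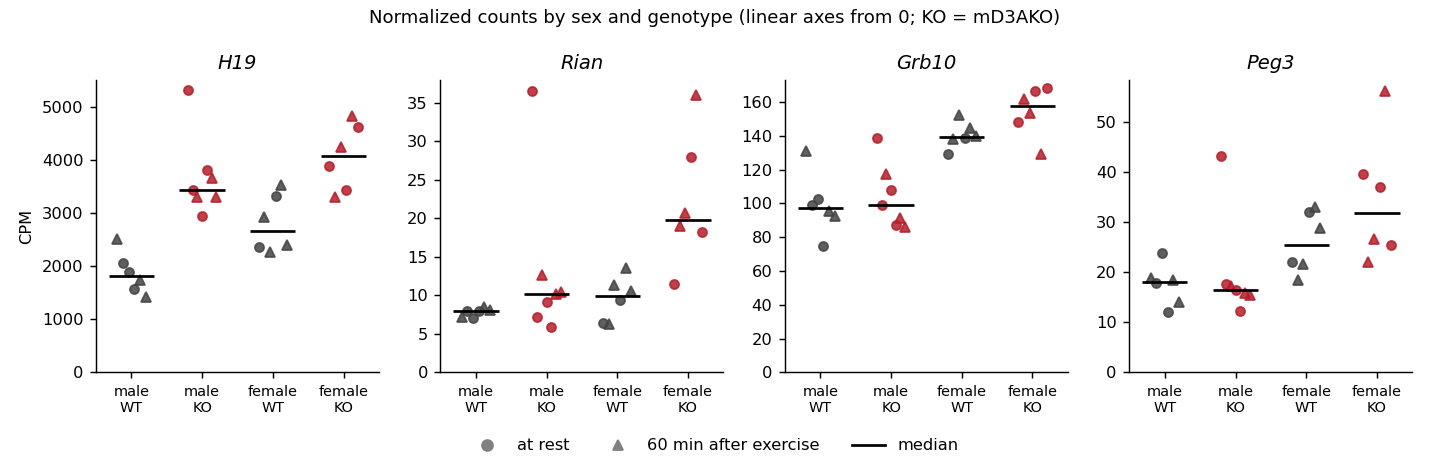
Each point is 1 mouse (circles at rest, triangles 60 minutes after exercise, red for mD3AKO), axes give CPM from 0, and lines are medians over 6 or 7 mice. Male WT and male mD3AKO mice do not overlap for *H19* (up to 2524 and from 2953 CPM), and *Grb10* separates by sex rather than genotype, with medians of 97.5 and 99.1 CPM in males and 139 and 158 CPM in females.

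Marker genes of other cells were compared between genotypes beside *H19*. Among satellite cell markers *Pax7* was higher in mD3AKO muscle (0.48 ± 0.11, edgeR, adjusted p = 0.038) and the other 7 were not called. Their summed level ran from 63.1 over 75.5 to 86.2 CPM in WT and from 56.7 over 73.6 to 90.6 CPM in mD3AKO mice. For fibroblast (8), endothelial (6), adipocyte (6), immune cell (5), Schwann cell (6), smooth muscle and pericyte (5), slow fiber (7), fast fiber (8) and blood markers (5), 0 were called for genotype in edgeR. Since only 0.269% of all tested genes were called, lists of this size say little by having none. The summed fibroblast level was between 1990 and 4022 CPM in WT and between 1769 and 5727 CPM in mD3AKO mice, and no marker listed was at 0 in every library. The 6 adipocyte markers had a median genotype log2 fold change of -0.68, and 0 of them had an unadjusted p under 0.05 in edgeR. The part of *Pax7*-expressing cells or of adipocytes in the difference of *H19* was not tested.

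Other imprinted genes were not called for genotype. A list of this size says little by having none, since so few of all tested genes were called. Of 71 listed, 70 were in the table and 53 were tested, and 0 were called for genotype (edgeR, 0.269% over all tested genes) and 7 had an unadjusted p under 0.05 (6.23% over all), with a median log2 fold change of 0.06 against 0.01 over all tested genes. For the 9 genes the median was 0.26, and 8 of them lay above 0. Without mouse 7 their median was 0.10 and 6 lay above 0. After exercise 2 of the 53 rose in edgeR (10.4% of all tested genes were called). *Impact*, a regulator of translation under amino acid shortage, rose from 16.6 ± 1.55 CPM (SD, n = 12) to 55.0 ± 9.81 CPM (n = 13) without overlap, by 1.73 ± 0.09 (edgeR, adjusted p = 2.3e-13). *Slc22a3*, an organic cation transporter, rose by 0.81 ± 0.20 (edgeR, adjusted p = 0.0071).

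Of the partners of IGF2 and GRB10 (receptors, binding proteins and substrates), 15 of 17 were tested and 0 were called for genotype in edgeR, with 1 at an unadjusted p under 0.05, where 0.269% of all tested genes were called and 6.23% had such a p. *Irs2*, a substrate of the insulin and IGF1 receptors, rose after exercise from 30.7 ± 6.88 CPM to 215 ± 73.7 CPM, by 2.82 ± 0.18 (edgeR, adjusted p = 1.0e-11). It was the 1 partner of 15 called for exercise, where 10.4% of all tested genes were. Of 19 listed factors that act on imprints or on DNA methylation, 16 were tested. *Dnmt3a* itself fell by 1.52 ± 0.07 (edgeR, adjusted p = 1.5e-13) and the other 15 were not called for genotype. The zinc finger genes *Zfp445* (0.29 ± 0.05) and *Zfp568* (0.39 ± 0.07) and the 5-methylcytosine oxidase *Tet2* (0.45 ± 0.09) rose after exercise in edgeR (adjusted p = 0.00014, 0.00058 and 0.0014). They were 3 of the 16, where 10.4% of all tested genes were called for exercise.

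**Figure D5:**
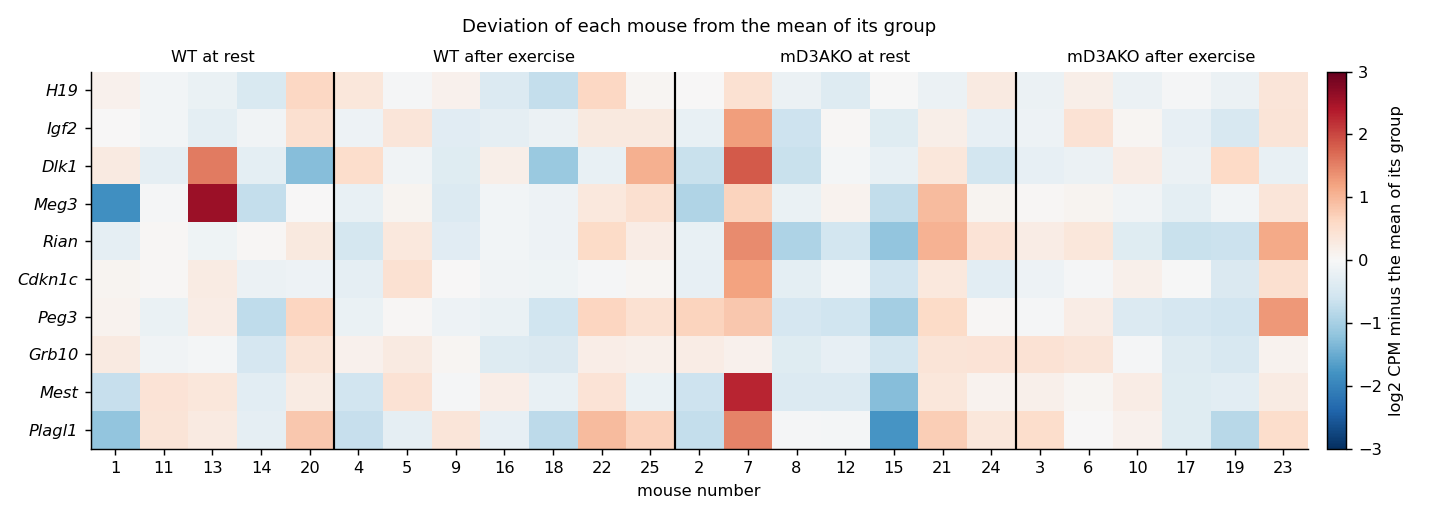
Columns are the 25 mice by group, rows the 10 genes, and colour gives log2 CPM minus the mean of the group, from -3 (blue) to 3 (red). Mouse 7 is above its group for all 10 genes, and mouse 13 stands out for *Meg3* and *Dlk1*.

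After the 4 group means were removed from log2 CPM, all 36 pairs of the 9 tested genes had a correlation above 0 over the 25 mice, with a median Pearson's r of 0.58. Over all pairs of the 16340 tested genes the median was -0.001, and 49.8% of pairs lay above 0. This is a description, since the pairs share genes and mice. Values ran from 0.04 for *H19* and *Meg3* to 0.83 for *Cdkn1c* and *Mest*. Without mice 7 and 13, all 36 pairs stayed above 0 and the median was 0.56. Mouse 15 lay below its group's mean for all 10 genes. With the means of 8 groups that include sex removed, 36 pairs were above 0 (median 0.59), and with mice 7, 13 and 15 left out as well 33 were (median 0.45), down to -0.11 for *H19* and *Cdkn1c*. These checks were chosen after seeing the data. The part of the marker genes given above in these correlations was not tested. In mouse 7, 7 of the 10 genes were at their highest of all mice, among them *Mest* at 6.53 times and *Igf2* at 2.84 times the median of the other mD3AKO mice at rest. The share of all tested genes that were highest in mouse 7 is not given here. The count is therefore not shown to be particular to these 10 genes.

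Correlations were tested in 6 pairs chosen by domain, by permutation of 100000 resamples on deviations from the group means, with p adjusted over the 6 pairs. *H19* and *Igf2* gave r = 0.52 (permutation p = 0.0073, adjusted 0.042) and rho = 0.46 (permutation p = 0.022, adjusted 0.066). Without the 2 mice farthest from the median of *H19* (18 and 20) r was 0.49, without mice 7 and 13 it was 0.43, and with the means of 8 groups that include sex r was 0.36 (adjusted permutation p = 0.11). The pooled value over 25 mice without removal of means was 0.52.

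*Meg3* and *Rian* gave r = 0.41 (permutation p = 0.045, adjusted 0.091) and rho = 0.68 (permutation p = 0.00034, adjusted 0.0020), and without mice 1 and 13 r was 0.76. *Dlk1*, at few reads, and *Meg3* gave r = 0.50 (permutation p = 0.014, adjusted 0.042) and rho = 0.42 (permutation p = 0.039, adjusted 0.079). That relation rests on mice 7 and 13, since r was 0.03 without them, and it did not pass with the means of 8 groups (r = 0.47, adjusted permutation p = 0.063) or with a prior count of 0.5 (r = 0.43, adjusted permutation p = 0.091). *Dlk1* and *Rian* gave r = 0.23 and rho = 0.06 (permutation p = 0.26 and 0.78, adjusted 0.39 and 0.86), and r = -0.05 without mice 7 and 13. Across domains, *H19* and *Meg3* gave r = 0.04 and rho = 0.15 (permutation p = 0.87 and 0.47, adjusted 0.87 and 0.70), and *H19* and *Dlk1* r = 0.08 and rho = -0.04 (permutation p = 0.72 and 0.86, adjusted 0.86 and 0.86). Without mice 18 and 20 these 2 values of r were 0.01 and 0.14.

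The genes most like each of the 9 were sought among tested genes whose log2 CPM averaged 0 or more, by Pearson's r over the 25 mice after the group means were removed, as a description. For *H19* they were *Dag1*, the dystroglycan gene of the muscle membrane (r = 0.78), *Tfpi*, an inhibitor of coagulation (0.76), *Mapk1ip1l* (0.72), *Sln*, the sarcolipin gene that regulates the calcium pump (0.71), and *Tbc1d31* (0.71). *Igf2* was followed most closely by *Myh3* (r = 0.85, and 0.68 without mouse 7), *Itm2a* (0.83) and *Capn6* (0.80). *Rian* went with *Fap*, a protease of fibroblasts (r = 0.90), *Gpsm2* (0.87) and *Itm2a* (0.87). *Meg3* went with *Ahi1* (r = 0.80, and 0.60 without mouse 13) and *Srgap1* (0.78, and 0.85 without mouse 13).

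*Cdkn1c* was nearest to the elastic fiber genes *Eln* (r = 0.87, and 0.71 without mouse 7), *Mfap4* (0.86) and *Fbln5* (0.84). *Mest* was nearest to *Maged2* (r = 0.94, and 0.83 without mouse 7), to *Postn*, which codes for the matrix protein periostin (0.93), and to *Camkk1* (0.93). *Peg3* went with *Adamts20* (r = 0.90), its neighbour *Zim1* (0.89) and *Npc2* (0.85). *Grb10* went with *Frem2* (r = 0.91), *Btbd8* (0.90) and *Stox2* (0.90), and *Plagl1* with *Gxylt2* (0.92), *Sntb2* (0.90) and *Hmcn1* (0.89).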

How the data were processed

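The authors made stranded libraries of *soleus* RNA after removal of ribosomal RNA, sequenced 75-base paired ends, and deposited raw counts per gene on mm10 (GENCODE release 15). The submitters' processing notes name FastQC 0.11.5, STAR 2.5.3a and featureCounts 1.5.3, and the strand setting of counting is not given in the sources used here. The deposited gene length column, listed in the file as another unit, was used for RPKM. Totals were 22671457 to 37431801 counts per library. Symbols came from GENCODE release 21 for 52403 of 52636 genes.

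Counts were tested with edgeR 4.0.16 (limma 3.58.1, R 4.3.3): TMM, filterByExpr (minimum count 10, total 15), quasi-likelihood fit with 4 group means, Benjamini-Hochberg adjustment over 16340 genes, and calls at adjusted p under 0.05. Sex was tested with 8 groups. DESeq2 1.42.0, other scalings, filters and subsets of mice were alternatives. Log2 CPM used a prior count of 2.

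The 10 genes and all lists were chosen with earlier results of these data known. Named are these genes, list genes called for genotype or exercise, the genes most like each one (5 for *H19*, otherwise 3, of which 1 is not reported here), and genes within 250 kb called for genotype. Other genes named were chosen after their values were seen. Replicates are separate mice.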

Additional observations from a re-analysis of the deposited data

Results flagged for a closer look

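In groups of 5 to 7 mice, a gap test at the 95% level marks a value that stands far from the others. Chance marks about 1 in 20 groups where values are normally distributed, which is not known for these CPM without logarithm. Over 40 combinations of gene and group, which share mice, the test marked 7 values, each the highest of its group. In 4 of them the mouse was mouse 7 (mD3AKO at rest), with *Igf2* at 32.5 CPM, *Dlk1* at 0.791 CPM, *Cdkn1c* at 20.1 CPM and *Mest* at 27.3 CPM. The others were *Meg3* at 31.0 CPM in mouse 13 (WT at rest), *Cdkn1c* at 12.6 CPM in mouse 5 (WT after exercise) and *Peg3* at 56.3 CPM in mouse 23 (mD3AKO after exercise). *H19*, *Rian*, *Grb10* and *Plagl1* had none.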

How the results depend on the processing

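The call of *H19* for genotype was kept with DESeq2's size factors in edgeR, no filter, DESeq2 itself, ribosomal RNA genes left out, sex or mouse number blocks as a term, males alone, and each single mouse left out (0.68 to 0.82). It was lost with library totals alone (0.69), in females alone (0.53) and without mice 7, 13 and 15 together (0.65), an alternative chosen after seeing the data. The cause was not tested. Of the 9 genes, 1 was called for genotype, 0 were called in those 3 settings, and 2 (*H19* and *Rian*) with DESeq2 and with mouse number blocks. Without any 1 mouse it was 1 to 1. Over all genes the genotype count was 44, with 29 for library totals, 81 for DESeq2, 72 with sex as a term, 97 with blocks, 23 in males, 6 in females and 30 without the 3 mice. Library totals alone moved the median log2 fold change of all genes for sex from -0.02 to -0.12. For exercise and the interaction, 0 of the 9 genes were called in every setting. For sex, 3 were called, 5 without the 3 mice, and 1 to 5 without single mice (1, *Grb10*, without mouse 20 and 5 without mouse 7).

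Other values changed sign, none of them past the threshold, and the cause was not tested. Without mice 7, 13 and 15, the log2 fold change for genotype was 0.33 for *Meg3* and -0.030 for *Cdkn1c*, the interaction 0.0083 for *H19* and 0.059 for *Rian*, and the sex difference -0.17 for *Meg3*, -0.11 for *Cdkn1c* and -0.13 for *Mest*. In females alone, genotype gave 0.45 for *Meg3*, exercise 0.024 for *Igf2*, 0.10 for *Meg3*, -0.013 for *Grb10* and 0.10 for *Plagl1*, and the interaction 0.085 for *H19*, 0.10 for *Igf2*, -0.18 for *Meg3* and 0.12 for *Peg3*. In males alone, exercise gave -0.079 for *H19*, -0.19 for *Rian* and -0.16 for *Cdkn1c*. Exercise gave -0.028 for *H19* with sex and -0.010 with blocks as a term, and library totals gave -0.011 for *Cdkn1c* with exercise and -0.074 with sex. With 1 mouse left out, genotype ran from -0.45 to 0.34 for *Meg3*, -0.090 to 0.10 for *Cdkn1c* and -0.077 to 0.38 for *Mest*. Exercise ran from -0.037 to 0.11 for *H19*, -0.21 to 0.0029 for *Igf2*, -0.031 to 0.17 for *Cdkn1c* and -0.24 to 0.055 for *Peg3*, and the interaction from -0.48 to 0.15 for *Rian* and -0.53 to 0.024 for *Peg3*. The sex difference ran from -0.15 to 0.58 for *Meg3*, -0.12 to 0.070 for *Cdkn1c*, -0.17 to 0.32 for *Mest* and -0.45 to 0.092 for *Plagl1*. The r of *H19* and *Dlk1* was -0.012 with a prior count of 0.5. No paired analysis was possible because each mouse number belongs to 1 mouse and no group shares a number with another.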

Other observations

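Sex differences also passed the test among the other lists, in genes named after their values were seen. Of the 53 tested imprinted genes outside the 10, 5 were called between males and females in edgeR, a share near the 8.65% of all tested genes. *Pon3* (0.32 ± 0.06, log2 fold change of males minus females ± SE) and *Pon2* (0.20 ± 0.06), of the paraoxonase family, were higher in males, and *Zdbf2* (-0.73 ± 0.16), *Asb4* (-0.50 ± 0.12) and *Peg13* (-0.17 ± 0.05) were lower. Of the 15 tested partners of IGF2 and GRB10, *Grb14*, which codes for an adaptor of the same family as GRB10, was higher in males (0.77 ± 0.11), and the receptor gene *Igf1r* (-0.27 ± 0.06) and the substrate gene *Irs1* (-0.68 ± 0.11) were lower. *Grb14* and *Grb10* thus differed between the sexes in opposite directions.

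Of 6 endothelial markers, 4 were lower after exercise in edgeR, among them *Kdr*, the main receptor of VEGF (-0.58 ± 0.07), and *Cldn5*, a tight junction gene (-0.59 ± 0.13). The others were *Emcn* (-0.27 ± 0.06) and *Cdh5* (-0.23 ± 0.06), where 10.4% of all tested genes were called for exercise. Of 5 smooth muscle and pericyte markers only *Kcnj8* was called, lower after exercise (-0.29 ± 0.06). The median log2 fold change of these 5 was 0.03, so the list as a whole did not fall. Of 8 satellite cell markers 2 were called lower as well, *Myf5* (-0.46 ± 0.09) and *Pax7* (-0.45 ± 0.10).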
